A study of Mus musculus with 12 samples.

Results

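This section describes 48 genes of DNA replication and S phase in mouse neural stem cells and in the cells made from them with LIF and noggin or with BMP4. The genes were taken as a list of symbols by role: the MCM helicase, origin licensing, helicase activation, polymerases and primase, the sliding clamp and its loader, single-strand binding, Okazaki fragment joining, nucleotide supply, chromatin and histone supply, and the regulators E2f1 and Brca1. The annotation of the array gave 46 of the 48 a probe, and 42 had a probe detected (detection p under 0.05) on at least 4 of 11 arrays, out of 10711 genes tested in all. Orc1, Pola1, Pole2 and Slbp were detected on 0 arrays and have no value, and Mcm3 and Gins1 were not analysed here. Gmnn stood just inside this limit, with detection on exactly 4 arrays. No measured change entered the rule of the list, but it was drawn up with earlier results of these data known.

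RNA came from CD1 mouse neural stem cells, taken on postnatal day 1 from the subventricular zone, grown as neurospheres in medium with EGF and measured on Illumina mouse bead arrays, 4 per group. The Neurosphere group was kept in 20 ng/ml EGF, carried a control GFP retrovirus and was harvested after sorting by FACS. Both other groups carried a GFAP-GFP retrovirus, in which GFP is driven by the promoter of an astrocyte gene. They were sorted for GFP and then kept for 7 days in 1 ng/ml EGF. The LIF_NOG group received 20 ng/ml LIF, a cytokine that signals through STAT3, with 250 ng/ml of the BMP antagonist noggin, and the BMP4 group received 20 ng/ml BMP4. Cytokines were added again on the third day at a lower concentration. Neurosphere thus differs from both treated groups in virus, EGF dose and culture time as well as cytokine, and these cannot be told apart, whereas LIF_NOG and BMP4 differ in the cytokines alone, per the labels. The protocol places the sort before differentiation, while the design text speaks of GFP-expressing cells at its end. Whether replicates are separate cultures or animals is not in the labels. The p-values therefore reflect only how these samples vary, and that variation may be technical.

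Replication begins when the origin recognition complex, Cdc6 and Cdt1 load a ring of MCM proteins onto DNA in G1 phase. In S phase Cdc45 and the GINS complex switch the ring on as a helicase, polymerases copy both strands behind it, Pcna holds the polymerases on DNA, and Fen1 and Lig1 join the fragments of the lagging strand. Many of these genes are transcribed around the start of S phase under E2F transcription factors, so their RNA is a common readout of cycling cells. Neural stem cells cycle in EGF, and BMP signals are known to bring them to rest or to astrocyte fate.

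Values are log2 intensities after background correction and quantile normalization, and differences between groups are given as log2 differences with the limma standard error. Calls rest on limma with Benjamini-Hochberg adjustment over all genes tested, at a limit of 0.05. A probe's level cannot be set against that of another probe, so genes are compared by their changes. Between 38.7% and 42.0% of probes were detected per array. Neurosphere 1 was left out because its column of the raw table stands in another row order. Once its rows were matched through the authors' processed table, its value for the 42 genes lay between -0.26 and 0.18 of the mean of Neurosphere 2 to 4. The arrays also fall into 2 sets by the row order of the authors' table, with Neurosphere 2 to 4 and LIF_NOG 1 to 3 in set A, and Neurosphere 1, LIF_NOG 4 and all BMP4 arrays in set B. On the third principal component, which held 4.91% of the variance, LIF_NOG 2 lay at -40.8 and the other LIF_NOG arrays at 0.40 to 13.9. In RNA from bulk cultures, fewer cycling cells and less RNA per cell cannot be told apart.

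The start of these genes is shown here for 6 members that bracket the results below, as 250 bases before and 50 bases after the start site from RefSeq on GRCm38.p6, each read 5′ to 3′ on the gene's own strand. Capitals mark the E2F octamers TTTCCCGC, TTTGGCGC, TTTCGCGC and TTTGCCGC and the CCAAT box, on either strand, so that GCGGGAAA, GCGCCAAA, GCGCGAAA, GCGGCAAA and ATTGG are the same motifs read on the other strand. Overlapping matches run together. The 6 were picked by hand, so their matches do not stand for the list. Mcm5 (chr8:75109259-75109558, plus strand), Mcm6 (chr1:128359656-128359955, minus strand) and Uhrf1 (chr17:56304063-56304362, plus strand, 1 of 2 starts listed) are among the genes with the largest drop in BMP4. Tk1, Chaf1b and Mcm2 also rank among the largest BMP4 drops, hold none of these octamers in their listed promoters and are not shown. Gins3 (chr8:95633309-95633608, plus strand) and Rpa1 (chr11:75348334-75348633, minus strand) were higher in BMP4 than in LIF_NOG. Rrm2 (chr12:24708004-24708303, plus strand) had the largest BMP4 drop of the measured members, by the probe of highest mean of each gene. It holds none of the 4 octamers in this window.
Mcm5: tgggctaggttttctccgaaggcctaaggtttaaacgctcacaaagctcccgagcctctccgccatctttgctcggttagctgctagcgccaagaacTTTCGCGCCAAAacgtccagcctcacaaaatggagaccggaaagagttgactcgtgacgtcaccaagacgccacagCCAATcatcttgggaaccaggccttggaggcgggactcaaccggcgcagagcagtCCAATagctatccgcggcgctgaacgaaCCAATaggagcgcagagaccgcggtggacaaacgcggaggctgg
Mcm6: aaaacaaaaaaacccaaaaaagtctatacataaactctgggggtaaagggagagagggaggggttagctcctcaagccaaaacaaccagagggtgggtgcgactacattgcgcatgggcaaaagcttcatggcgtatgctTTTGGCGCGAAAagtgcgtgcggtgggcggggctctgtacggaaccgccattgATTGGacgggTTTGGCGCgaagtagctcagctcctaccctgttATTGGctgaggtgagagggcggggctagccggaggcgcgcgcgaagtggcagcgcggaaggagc
Uhrf1: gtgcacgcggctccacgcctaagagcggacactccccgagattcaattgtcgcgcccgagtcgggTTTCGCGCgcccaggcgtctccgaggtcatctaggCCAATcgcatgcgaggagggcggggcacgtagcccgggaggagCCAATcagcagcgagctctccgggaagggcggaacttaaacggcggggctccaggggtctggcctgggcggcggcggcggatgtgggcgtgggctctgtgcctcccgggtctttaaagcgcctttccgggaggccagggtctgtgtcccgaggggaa
Rrm2: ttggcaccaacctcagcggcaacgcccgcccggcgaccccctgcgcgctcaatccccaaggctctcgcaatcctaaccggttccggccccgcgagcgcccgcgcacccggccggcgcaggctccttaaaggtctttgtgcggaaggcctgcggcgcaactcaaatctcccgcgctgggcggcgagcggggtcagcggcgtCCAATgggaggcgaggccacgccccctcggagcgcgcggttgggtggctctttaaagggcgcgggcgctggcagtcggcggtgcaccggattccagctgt
Gins3: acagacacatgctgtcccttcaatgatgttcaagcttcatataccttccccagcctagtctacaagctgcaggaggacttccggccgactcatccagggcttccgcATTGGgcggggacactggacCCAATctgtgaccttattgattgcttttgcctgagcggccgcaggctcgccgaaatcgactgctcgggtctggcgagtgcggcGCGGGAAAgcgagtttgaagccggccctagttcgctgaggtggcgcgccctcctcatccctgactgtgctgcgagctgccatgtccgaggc
Rpa1: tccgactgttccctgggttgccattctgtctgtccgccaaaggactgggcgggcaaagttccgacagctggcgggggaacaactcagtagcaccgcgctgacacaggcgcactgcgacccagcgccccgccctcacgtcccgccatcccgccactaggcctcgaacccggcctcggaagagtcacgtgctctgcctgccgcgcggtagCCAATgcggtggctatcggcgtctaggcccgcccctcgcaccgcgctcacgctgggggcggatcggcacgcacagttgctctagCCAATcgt

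In Mcm5 overlapping octamers begin -153 and -149 bases from the start site and 3 CCAAT boxes follow. Mcm6 holds 3 octamers, beginning at -110, -106 and -47, Uhrf1 holds 1 at -185, and Gins3 holds 1 at -41. For Uhrf1 the listed start with the most octamers was shown, and its other start holds CCAAT boxes but no octamer. RefSeq's promoter table gave 48 promoters for 41 of the 48 genes. An E2F octamer stood in 15 of the 48 (31.2%), against 3.86% of 11112 promoters of the genes tested on the arrays and 2.26% of all 32851 promoters in the table. The share was 32.5% over 40 promoters of other replication genes and 3.7% over 27 promoters of mitosis genes. The CHR element TTTGAA, a motif known from genes of the later cell cycle, stood in 10.4% of the members' promoters, 12.3% of those of the genes tested, 17.9% of all promoters, 27.5% of those of other replication genes and 70.4% of those of mitosis genes. A CCAAT box stood in 60.4% of the members' promoters, 40.0% of those of other replication genes, 74.1% of those of mitosis genes, 37.8% of those of the genes tested and 37.4% of all. These are matches of letters, searched on both strands, and not binding sites.

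Against Neurosphere cells, 40 of the 42 measured replication genes were lower in LIF_NOG and 0 were higher (limma, and 0 also at an unadjusted p under 0.05). The list's median log2 difference was -1.41, against -0.03 over all genes tested, of which 26.4% were called, 1395 of them lower and 13.4% higher. In BMP4, 38 were lower and 0 were higher (0 also at an unadjusted p under 0.05), with a median of -2.56 against -0.01 over all genes, of which 50.4% were called, 25.5% lower and 24.9% higher. No BMP4 array detected Gmnn and Mcm10. Their fitted differences of -1.38 and -2.41 already lie above that median, so setting them at their bounds could not change it. Against LIF_NOG, 31 members were lower in BMP4, 2 were higher and 9 did not pass, with a median of -1.22 against -0.00 over all genes, of which 42.7% were called, 22.4% lower and 20.3% higher. The comparisons with Neurosphere share its 3 arrays.

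Of the 40 genes called lower in LIF_NOG, 32 fell at least 2-fold, 3 at least 4-fold and 0 at least 8-fold. Of the 38 called lower in BMP4, 38 fell at least 2-fold by fitted values, 28 at least 4-fold and 15 at least 8-fold. The 2-fold count includes Gmnn, which no BMP4 array detected and whose bound is only 1.88-fold. In 36 members every LIF_NOG array lay below every Neurosphere array, which held for 17.7% of all genes. In 40 members every BMP4 array did so, against 28.2% of all genes. The LIF_NOG count depended on single arrays of both groups: 22 members were called lower without Neurosphere 3, 27 without Neurosphere 2 and 27 without Neurosphere 4, 29 without LIF_NOG 1 and 31 without LIF_NOG 4, and 21 with only the 6 arrays of row-order set A, while 39 were called without LIF_NOG 2 and 38 without LIF_NOG 3. The LIF_NOG count was also 32 with only LIF_NOG and Neurosphere in the fit, and 32 of 46 members with no detection filter. In BMP4 the count was 37 to 39 on leaving out any array. Without Neurosphere 2, 3 or 4 or LIF_NOG 2, 41 members were measured, since Gmnn then missed the detection limit.

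**Figure D1:**
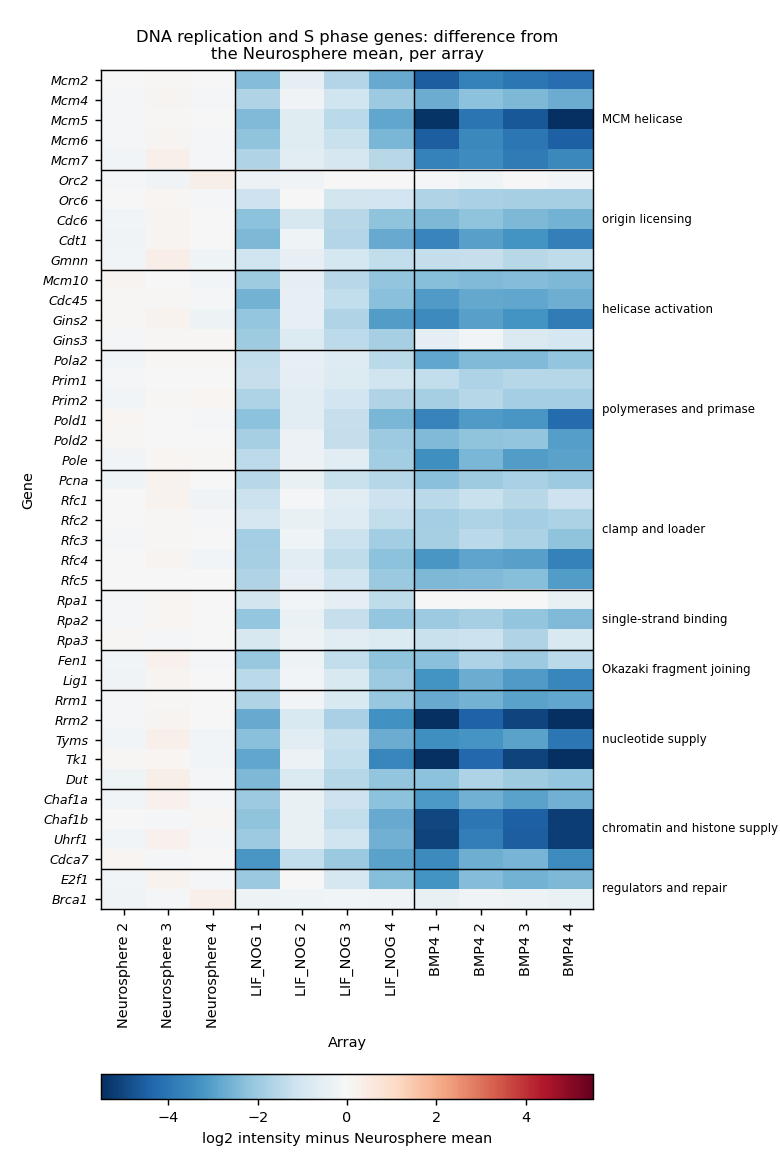
Difference in log2 intensity from the Neurosphere mean for each of the 42 genes (rows, by role) on each of the 11 arrays (columns); blue is lower. The BMP4 columns are the darkest in most rows, LIF_NOG 2 is the palest LIF_NOG column, and Gins3 and Rpa1 are paler in BMP4 than in LIF_NOG 1, 3 and 4.

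The MCM helicase genes were lower in both treated groups, 5 of 5 measured in each, with a median log2 difference of -1.66 in LIF_NOG and -4.11 in BMP4. Mcm5, a subunit of the hexameric helicase, read 12.32, 12.49 and 12.45 on Neurosphere arrays 2 to 4, 10.01, 11.75, 10.95 and 9.55 on LIF_NOG arrays 1 to 4 and 7.04, 8.38, 7.77 and 6.40 on BMP4 arrays 1 to 4. The 3 groups did not overlap. Mcm5 fell by 1.86 ± 0.50 in LIF_NOG (3.62-fold, adjusted p = 0.0172) and fell by 5.02 ± 0.50 in BMP4 (32.5-fold, adjusted p = 4.55e-06). Mcm6 read 10.97, 11.16 and 10.93 on Neurosphere arrays 2 to 4, 8.79, 10.36, 9.79 and 8.51 on LIF_NOG arrays 1 to 4 and 6.47, 7.50, 7.04 and 6.52 on BMP4 arrays 1 to 4. It fell 3.16-fold in LIF_NOG and 17.7-fold in BMP4 (adjusted p = 2.68e-06), again with no overlap between groups. Mcm2 fell 3.57-fold and 17.3-fold, and Mcm7 2.28-fold and 12.5-fold, in the same order. Mcm4 had the smallest BMP4 drop of the 5, 5.85-fold (adjusted p = 3.12e-05), and on the LIF_NOG side 1 of its 2 kept probes did not pass. Mcm5 no longer passed in LIF_NOG without Neurosphere 2, 3 or 4 or LIF_NOG 1 (adjusted p = 0.052 to 0.0605). Mcm4 no longer passed in LIF_NOG without Neurosphere 3 (adjusted p = 0.0608).

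Among the origin licensing genes, 4 of 5 measured were lower in each treated group. Cdt1, which brings MCM proteins to the origin, read 9.94, 10.28 and 10.13 on Neurosphere arrays 2 to 4, 7.63, 9.86, 8.52 and 7.33 on LIF_NOG arrays 1 to 4 and 6.49, 7.11, 6.82 and 6.37 on BMP4 arrays 1 to 4. LIF_NOG 2 was within 0.1 of the lowest Neurosphere array, and the BMP4 arrays lay below all others. Cdt1 fell by 1.78 ± 0.46 in LIF_NOG (adjusted p = 0.0138) and fell by 3.42 ± 0.46 in BMP4 (10.7-fold, adjusted p = 4.81e-05). Cdc6, the ATPase that acts with Cdt1, fell 3.3-fold in LIF_NOG and 5.47-fold in BMP4. Orc6, a subunit of the origin recognition complex, fell 1.75-fold and 3.4-fold. Orc2, another subunit of that complex, read 6.14, 6.05 and 6.55 on Neurosphere arrays 2 to 4, 5.93, 6.05, 6.25 and 6.24 on LIF_NOG arrays 1 to 4 and 6.12, 6.02, 6.22 and 6.08 on BMP4 arrays 1 to 4. Its groups overlapped, and the log2 differences were -0.13 in LIF_NOG (adjusted p = 0.566) and -0.14 in BMP4 (adjusted p = 0.497). Gmnn, which encodes the Cdt1 inhibitor geminin, was detected on 3 Neurosphere arrays and 1 LIF_NOG array and on 0 BMP4 arrays. It was lower in LIF_NOG (adjusted p = 0.0057) and at least 1.88-fold lower in BMP4 (adjusted p = 0.000126). Gmnn would have missed the detection limit without the Neurosphere arrays, so the filter itself favoured a lower call in the treated groups. For such bounds the undetected group is set at the detection floor of its arrays. Cdt1 no longer passed in LIF_NOG without Neurosphere 3 (adjusted p = 0.0557). Orc6 no longer passed in LIF_NOG without Neurosphere 2, 3 or 4 or LIF_NOG 1, 3 or 4 (adjusted p = 0.0502 to 0.0784).

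Of 4 helicase activation genes, 4 were lower in LIF_NOG and 3 in BMP4. Gins2 and Gins3 encode subunits of the same GINS complex, and in BMP4 Gins2 was called and Gins3 was not. Gins2 read 10.04, 10.16 and 9.67 on Neurosphere arrays 2 to 4, 7.84, 9.48, 8.32 and 6.89 on LIF_NOG arrays 1 to 4 and 6.43, 6.98, 6.66 and 6.10 on BMP4 arrays 1 to 4. It fell by 1.82 ± 0.45 in LIF_NOG and fell by 3.41 ± 0.45 in BMP4 (10.6-fold, adjusted p = 3.95e-05), although 1 of its 4 kept probes did not pass in any comparison. Gins3 read 6.99, 7.14 and 7.16 on Neurosphere arrays 2 to 4, 5.14, 6.34, 5.65 and 5.26 on LIF_NOG arrays 1 to 4 and 6.59, 6.95, 6.29 and 6.14 on BMP4 arrays 1 to 4. The BMP4 arrays lay between the Neurosphere arrays and LIF_NOG 1, 3 and 4, and overlapped LIF_NOG 2. Gins3 fell by 1.50 ± 0.27 in LIF_NOG (adjusted p = 0.00179), while in BMP4 its log2 difference from Neurosphere was -0.61 (adjusted p = 0.0775). That value passed without LIF_NOG 2 (adjusted p = 0.0169) and without BMP4 2 (adjusted p = 0.0373). Cdc45, the helicase cofactor that acts with GINS, fell 3.18-fold in LIF_NOG and 7.24-fold in BMP4, where 1 of 4 arrays detected it. Mcm10, which helps to activate the helicase, was detected on all 7 Neurosphere and LIF_NOG arrays and on 0 BMP4 arrays. It was 2.89-fold lower in LIF_NOG (adjusted p = 0.00343) and at least 4.54-fold lower in BMP4 (adjusted p = 2.84e-05).

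The polymerase and primase genes were lower in both treated groups, 6 of 6 measured in each. Pold1, the catalytic subunit of polymerase delta, read 11.33, 11.22 and 11.15 on Neurosphere arrays 2 to 4, 8.98, 10.63, 9.98 and 8.71 on LIF_NOG arrays 1 to 4 and 7.55, 8.12, 8.01 and 7.01 on BMP4 arrays 1 to 4. All 3 groups were separate. Pold1 fell by 1.66 ± 0.40 in LIF_NOG (adjusted p = 0.00958) and fell by 3.56 ± 0.40 in BMP4 (11.8-fold, adjusted p = 1.06e-05). Pold2, the accessory subunit of the same enzyme, fell 5.52-fold in BMP4. Pole, the catalytic subunit of polymerase epsilon on the leading strand, fell 2.09-fold in LIF_NOG and 7.89-fold in BMP4, where 2 of 4 arrays detected it. Pola2, the accessory subunit of polymerase alpha, fell 1.99-fold and 5.51-fold. The primase subunit genes Prim1 and Prim2 had smaller BMP4 drops, 2.93-fold and 3.47-fold. Pole no longer passed in LIF_NOG without Neurosphere 2, 3 or 4 or LIF_NOG 1 or 4 (adjusted p = 0.0698 to 0.104).

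Of the clamp and its loader, 6 of 6 genes were lower in each treated group. Pcna, the sliding clamp, read 8.32, 8.73 and 8.57 on Neurosphere arrays 2 to 4, 7.02, 8.15, 7.33 and 6.96 on LIF_NOG arrays 1 to 4 and 6.24, 6.58, 6.77 and 6.54 on BMP4 arrays 1 to 4. The LIF_NOG arrays lay below Neurosphere and above BMP4, with LIF_NOG 2 closest to Neurosphere. Pcna fell by 1.18 ± 0.25 in LIF_NOG (adjusted p = 0.00508) and fell by 2.01 ± 0.25 in BMP4 (4.03-fold, adjusted p = 2.63e-05). Pcna and Tyms have pseudogenes in the RefSeq gene table, so their probes may also read copies. Of the clamp loader genes, Rfc4 had the largest BMP4 drop, 9.22-fold, and Rfc1, the large subunit, the smallest, 2.55-fold. Rfc2, Rfc3 and Rfc5 fell 3.45-fold, 3.51-fold and 5.94-fold. Rfc1 no longer passed in LIF_NOG without Neurosphere 2, 3 or 4 or LIF_NOG 1 or 4 (adjusted p = 0.0502 to 0.119). Rfc3 no longer passed in LIF_NOG without Neurosphere 3 (adjusted p = 0.0508).

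Replication protein A, the trimer that coats single-stranded DNA, had 3 of 3 subunit genes lower in LIF_NOG and 2 of 3 in BMP4. Rpa1, its large subunit, read 12.61, 12.80 and 12.74 on Neurosphere arrays 2 to 4, 11.70, 12.57, 12.16 and 11.32 on LIF_NOG arrays 1 to 4 and 12.71, 12.73, 12.75 and 12.31 on BMP4 arrays 1 to 4. BMP4 arrays 1 to 3 lay within the Neurosphere range and above every LIF_NOG array, and BMP4 4 lay below the Neurosphere arrays. Rpa1 fell by 0.78 ± 0.24 in LIF_NOG (1.72-fold, adjusted p = 0.0329), and its BMP4 difference from Neurosphere was -0.09 (adjusted p = 0.801), with a 95% interval of -0.62 to 0.44. Rpa2 read 9.01, 9.23 and 9.14 on Neurosphere arrays 2 to 4, 7.00, 8.77, 7.85 and 7.01 on LIF_NOG arrays 1 to 4 and 7.12, 7.28, 6.96 and 6.71 on BMP4 arrays 1 to 4. It fell 2.77-fold in LIF_NOG (adjusted p = 0.00872) and 4.31-fold in BMP4 (adjusted p = 0.000241). Rpa3, the small subunit, had the smallest drop of all called members, 1.54-fold in LIF_NOG and 2.32-fold in BMP4. Rpa1 no longer passed in LIF_NOG without Neurosphere 2, 3 or 4 or LIF_NOG 1 or 4 (adjusted p = 0.0726 to 0.107). Rpa3 no longer passed in LIF_NOG without Neurosphere 2, 3 or 4 or LIF_NOG 1, 3 or 4 (adjusted p = 0.05 to 0.0981).

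Both genes that finish Okazaki fragments were lower in both treated groups. Fen1, the flap endonuclease, read 10.09, 10.44 and 10.13 on Neurosphere arrays 2 to 4, 8.13, 9.94, 8.88 and 8.01 on LIF_NOG arrays 1 to 4 and 7.90, 8.53, 8.21 and 8.73 on BMP4 arrays 1 to 4. LIF_NOG and BMP4 arrays overlapped, and LIF_NOG 2 was the highest of these 8. Fen1 fell by 1.48 ± 0.38 in LIF_NOG (adjusted p = 0.0132) and fell by 1.87 ± 0.38 in BMP4 (3.66-fold, adjusted p = 0.00113), a BMP4 call lost with the row-order block (adjusted p = 0.338). Lig1, the ligase that seals the fragments, read 10.31, 10.65 and 10.49 on Neurosphere arrays 2 to 4, 9.02, 10.34, 9.64 and 8.47 on LIF_NOG arrays 1 to 4 and 7.19, 7.75, 7.35 and 6.88 on BMP4 arrays 1 to 4. Here the BMP4 arrays lay below all LIF_NOG arrays, and LIF_NOG 2 lay within the Neurosphere range. Lig1 fell 2.17-fold in LIF_NOG (adjusted p = 0.0333) and 9.13-fold in BMP4 (adjusted p = 9.16e-06). Fen1 no longer passed in LIF_NOG without Neurosphere 3 (adjusted p = 0.0589). Lig1 no longer passed in LIF_NOG without Neurosphere 2, 3 or 4 or LIF_NOG 1 or 4 (adjusted p = 0.0704 to 0.113).

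The nucleotide supply genes were lower in both treated groups, 5 of 5 in each. Rrm2 and Tk1 had the largest BMP4 drops of single members, by the probe of highest mean of each gene. Rrm2, the small subunit of ribonucleotide reductase, read 10.62, 10.87 and 10.70 on Neurosphere arrays 2 to 4, 7.97, 9.88, 8.93 and 7.39 on LIF_NOG arrays 1 to 4 and 4.76, 6.29, 5.70 and 5.20 on BMP4 arrays 1 to 4. The groups formed 3 separate steps. Rrm2 fell by 2.19 ± 0.49 in LIF_NOG (4.56-fold, adjusted p = 0.0068) and fell by 5.25 ± 0.49 in BMP4 (37.9-fold, adjusted p = 2.75e-06). The Rrm2 probe was detected on 3 of 4 BMP4 arrays. Of 3 kept Rrm2 probes, the others gave smaller BMP4 log2 differences of -3.81 and -1.80, which also passed. Rrm1, the large subunit of the same enzyme, fell 2.28-fold and 6.89-fold. Tk1, the S phase thymidine kinase, read 10.04, 10.11 and 9.83 on Neurosphere arrays 2 to 4, 7.14, 9.68, 8.62 and 6.40 on LIF_NOG arrays 1 to 4 and 4.48, 5.68, 4.92 and 4.37 on BMP4 arrays 1 to 4. LIF_NOG 2 was close to the Neurosphere arrays, and 2 of 4 BMP4 arrays detected the gene. Tk1 fell 4.08-fold in LIF_NOG (adjusted p = 0.0272) and 35.1-fold in BMP4 (adjusted p = 1.68e-05). Tyms, thymidylate synthase, fell 3.26-fold and 10.4-fold, with 1 of its 3 kept probes not passing. Dut, which removes dUTP from the nucleotide pool, read 6.97, 7.53 and 7.15 on Neurosphere arrays 2 to 4, 4.74, 6.41, 5.63 and 5.07 on LIF_NOG arrays 1 to 4 and 4.98, 5.53, 5.28 and 5.11 on BMP4 arrays 1 to 4. It fell 3.38-fold in LIF_NOG (adjusted p = 0.00203) and 3.98-fold in BMP4 (adjusted p = 0.000195), and the treated groups overlapped. Rrm1 no longer passed in LIF_NOG without Neurosphere 2, 3 or 4 or LIF_NOG 1 (adjusted p = 0.0636 to 0.0784). Tk1 no longer passed in LIF_NOG without Neurosphere 2, 3 or 4 or LIF_NOG 1 or 4 (adjusted p = 0.0577 to 0.0865). Tyms no longer passed in LIF_NOG without Neurosphere 3 (adjusted p = 0.0533).

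Of the genes that rebuild chromatin behind the fork, 4 of 4 measured were lower in each treated group. Uhrf1, which reads hemimethylated DNA and brings the maintenance DNA methyltransferase to it, read 12.15, 12.53 and 12.23 on Neurosphere arrays 2 to 4, 10.31, 11.88, 11.19 and 9.64 on LIF_NOG arrays 1 to 4 and 7.20, 8.49, 7.75 and 7.13 on BMP4 arrays 1 to 4. No array of a group overlapped another group. Uhrf1 fell by 1.54 ± 0.45 in LIF_NOG (2.92-fold, adjusted p = 0.0251) and fell by 4.66 ± 0.45 in BMP4 (25.2-fold, adjusted p = 3.71e-06). Chaf1b and Chaf1a encode subunits of the histone chaperone CAF-1. Chaf1b fell 3.22-fold in LIF_NOG and 25.2-fold in BMP4, and Chaf1a 2.73-fold and 7.21-fold. Cdca7, a zinc finger protein that partners the chromatin remodeller Hells, read 11.77, 11.61 and 11.64 on Neurosphere arrays 2 to 4, 8.48, 10.33, 9.63 and 8.74 on LIF_NOG arrays 1 to 4 and 8.17, 8.98, 9.13 and 8.21 on BMP4 arrays 1 to 4. It had the largest LIF_NOG drop of all measured members. Cdca7 fell by 2.38 ± 0.39 (5.19-fold, adjusted p = 0.00104), and 8.28-fold in BMP4 (adjusted p = 2.85e-05). Uhrf1 no longer passed in LIF_NOG without Neurosphere 2, 3 or 4 or LIF_NOG 1 or 4 (adjusted p = 0.0569 to 0.0926). Chaf1b no longer passed in LIF_NOG without Neurosphere 2 or 4 (adjusted p = 0.0516 to 0.0547). Chaf1a no longer passed in LIF_NOG without Neurosphere 3 (adjusted p = 0.0512).

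E2f1, a transcription factor that drives S phase genes, read 9.14, 9.46 and 9.23 on Neurosphere arrays 2 to 4, 7.22, 9.25, 8.33 and 6.93 on LIF_NOG arrays 1 to 4 and 6.00, 6.88, 6.70 and 6.79 on BMP4 arrays 1 to 4. LIF_NOG 2 lay within the Neurosphere range, and the other 7 treated arrays lay below it. E2f1 fell by 1.34 ± 0.44 in LIF_NOG (adjusted p = 0.0414) and fell by 2.69 ± 0.44 in BMP4 (6.43-fold, adjusted p = 0.000247), and the BMP4 call was lost with the row-order block (adjusted p = 0.181). Brca1, which acts in repair at stalled forks, had log2 differences of -0.21 in LIF_NOG (adjusted p = 0.283) and -0.31 in BMP4 (adjusted p = 0.07). The BMP4 value of Brca1 passed without Neurosphere 2 (adjusted p = 0.0459). A second Brca1 probe passed in BMP4, at -0.56 (adjusted p = 0.0474 over all kept probes). In all, 16 members had several kept probes, and in 7 of them (Gins2, Mcm4, Tyms, Brca1, Dut, Mcm10 and Rfc5) the probes differed in call in at least 1 comparison. E2f1 no longer passed in LIF_NOG without Neurosphere 2, 3 or 4 or LIF_NOG 1 or 4 or BMP4 2 or 3 (adjusted p = 0.0518 to 0.129).

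**Figure D2:**
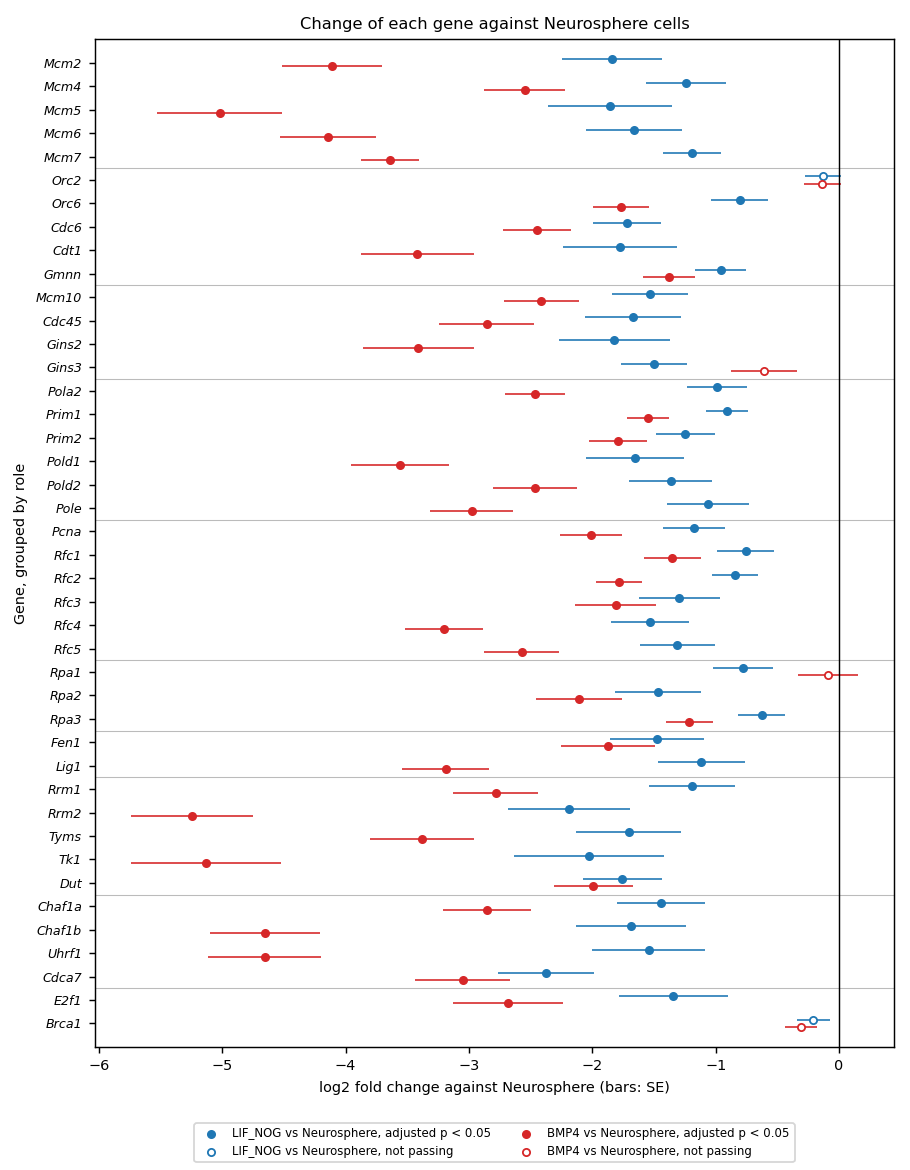
Log2 fold change against Neurosphere for each of the 42 genes in LIF_NOG (blue) and BMP4 (red), with SE; open circles did not pass. BMP4 lies further left in most rows, except for Gins3 and Rpa1; the BMP4 points of Gmnn and Mcm10 are fitted values of genes no BMP4 array detected.

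**Figure D3:**
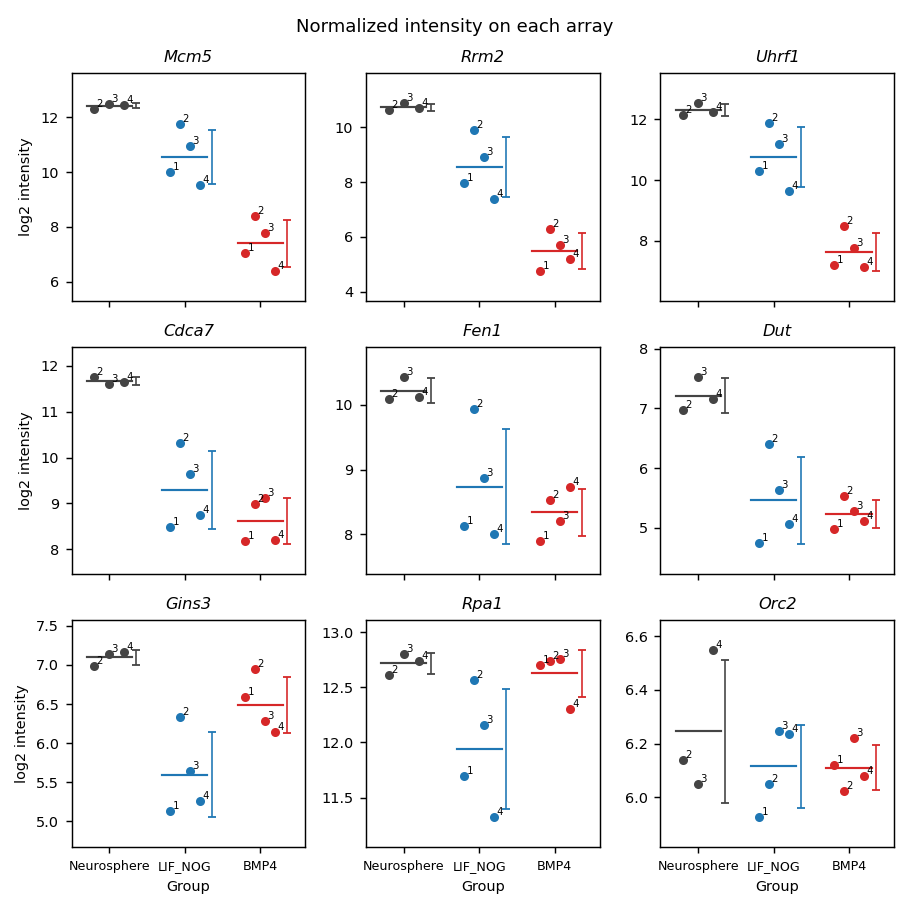
Log2 intensity of 9 genes on each array, with numbers for the replicate, lines for group means and bars for SD. Mcm5, Rrm2 and Uhrf1 form 3 separate levels, the treated groups overlap for Cdca7, Fen1 and Dut, and BMP4 arrays of Gins3 and Rpa1 lie above most LIF_NOG arrays.

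LIF_NOG and BMP4 were compared directly because they share the virus, the EGF dose and the time in culture. BMP4 cells had less RNA of 31 replication genes, more of Gins3 and Rpa1, and 9 did not pass. The log2 difference of BMP4 from LIF_NOG was -3.16 for Mcm5 (8.97-fold, adjusted p = 0.000159), -3.11 for Uhrf1 (8.65-fold, adjusted p = 8.15e-05) and -3.10 for Tk1 (8.59-fold, adjusted p = 0.000745). Rrm2 was 8.32-fold lower, Chaf1b 7.82-fold, Mcm6 5.58-fold and Mcm7 5.47-fold. Of the 31, 23 were lower at least 2-fold, 9 at least 4-fold and 4 at least 8-fold. In 27 members every BMP4 array lay below every LIF_NOG array, against 18.8% of all genes.

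Gins3 was higher in BMP4 by 0.90 ± 0.25 (1.86-fold, adjusted p = 0.0106) and Rpa1 by 0.69 ± 0.23 (1.61-fold, adjusted p = 0.026). The Rpa1 call was lost on leaving out LIF_NOG 1 or 4 or BMP4 1, 2 or 3, with adjusted p between 0.0614 and 0.0722. With the row-order set blocked and Neurosphere 1 left out, the differences were 1.24 for Gins3 and 1.30 for Rpa1. These set the BMP4 mean against LIF_NOG 4 alone, which was the lowest LIF_NOG array for Rpa1. A further 7 genes fell in both treated groups but did not differ past the threshold between them: Gmnn, Prim2, Rfc3, Rpa2, Fen1, Dut and Cdca7. Their intervals leave room for differences either way in some cases. For Fen1 the log2 difference was -0.40 with a 95% interval of -1.16 to 0.37, for Dut -0.24 with -0.88 to 0.41, for Rfc3 -0.52 with -1.18 to 0.15, for Rpa2 -0.64 with -1.34 to 0.06, for Cdca7 -0.67 with -1.45 to 0.10 and for Prim2 -0.55 with -1.03 to -0.07. Gmnn was undetected on 7 of these 8 arrays. A second Dut probe did pass between the treatments, at -0.435 (limma, adjusted p = 0.0496 over all kept probes). Conversely, second probes of Mcm4, Mcm10 and Rfc5, which were called lower, did not pass (adjusted p = 0.187, 0.34 and 0.393). For Orc2 the difference was -0.00 (-0.30 to 0.29) and for Brca1 -0.10 (-0.37 to 0.17). Cdc45 no longer passed between the treatments without LIF_NOG 3 (adjusted p = 0.0502). Cdc6 no longer passed between the treatments without LIF_NOG 2 or 3 or BMP4 1, 3 or 4 (adjusted p = 0.0604 to 0.0896). E2f1 no longer passed between the treatments without LIF_NOG 3 or BMP4 1 (adjusted p = 0.0546 to 0.0593). Mcm10 no longer passed between the treatments without BMP4 4 (adjusted p = 0.0511). Rfc1 no longer passed between the treatments without Neurosphere 2, 3 or 4 or LIF_NOG 2 or 3 or BMP4 1, 2 or 3 (adjusted p = 0.0517 to 0.105). Rpa3 no longer passed between the treatments without BMP4 3 (adjusted p = 0.0536). Cdca7 passed between the treatments without LIF_NOG 1 (adjusted p = 0.0461). Gmnn passed between the treatments without LIF_NOG 4 (adjusted p = 0.0415). Prim2 passed between the treatments without LIF_NOG 1 or 4 (adjusted p = 0.0261 to 0.0263). Rpa2 passed between the treatments without LIF_NOG 4 (adjusted p = 0.0497).

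The row-order sets bear on this comparison, since BMP4 lies in set B and LIF_NOG has 3 arrays in set A and 1 in set B. With the set as a block and Neurosphere 1 matched into the fit, 16 members were lower in BMP4 and the median difference was -0.84. With the block and without Neurosphere 1, the median was -0.51. That fit sets the BMP4 mean against LIF_NOG 4 alone, the only LIF_NOG array in set B. Its calls between the treatments are therefore not interpreted, and only their numbers are listed with the other settings below. The set difference of that fit, also used for BMP4 against Neurosphere, comes from LIF_NOG 4 against LIF_NOG 1 to 3. Within set B, LIF_NOG 4 lay above every BMP4 array in 32 of the 42 members, against 35.3% of all genes. Against Neurosphere, the block with Neurosphere 1 matched left 40 members lower in LIF_NOG and 38 in BMP4, and the block without Neurosphere 1 left 31 and 27. In that last fit the BMP4 calls against Neurosphere were lost for Fen1 (adjusted p = 0.338), Rfc3 (adjusted p = 0.215), E2f1 (adjusted p = 0.181), Rfc1 (adjusted p = 0.149) and Rpa2 (adjusted p = 0.142). They were also lost for Gmnn, Dut, Cdt1, Rpa3, Gins2 and Pold2, with adjusted p between 0.0521 and 0.0974. The part of the row-order sets in these differences was not tested beyond these fits.

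**Figure D4:**
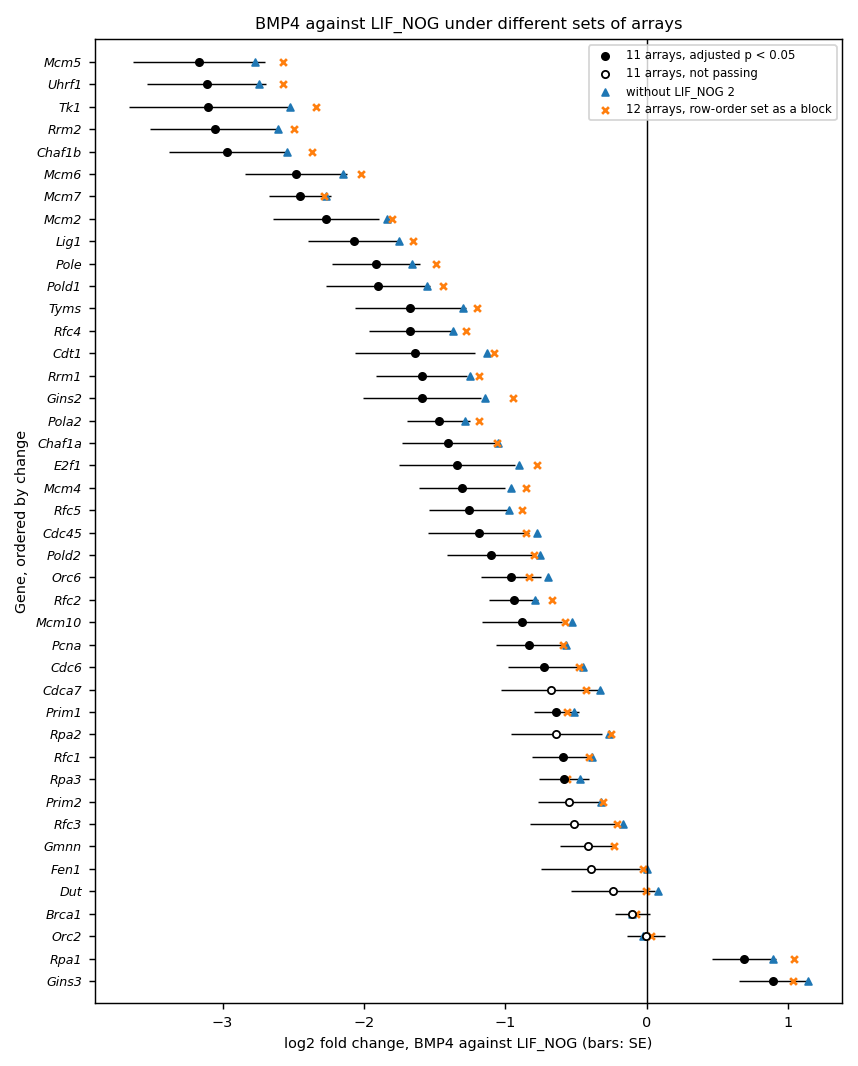
Log2 fold change of BMP4 against LIF_NOG for each of the 42 genes, with SE (black), without LIF_NOG 2 (triangles) and with 12 arrays and the row-order set as a block (crosses). Both alternatives shrink most of the negative differences and enlarge those of Gins3 and Rpa1.

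The replication genes moved together across the LIF_NOG arrays. LIF_NOG 2 was the highest array of its group in 40 of 42 members, against 33.0% of all genes, and in all 40 of them LIF_NOG 3 was the second. Over all 10711 genes, LIF_NOG 3 was second in 3677. LIF_NOG 4 was lowest in 28 members (66.7%, against 21.9% of all genes). LIF_NOG 1 was lowest in 14 (33.3%), near its share of 26.4% over all genes. The other groups also had a leading array. BMP4 2 was highest in 27 members (64.3%, against 18.3% of all genes) and Neurosphere 3 in 30 (71.4%, against 28.8%). The median member difference from the Neurosphere mean was -1.90 on LIF_NOG 1, -0.42 on LIF_NOG 2, -1.19 on LIF_NOG 3 and -2.11 on LIF_NOG 4. The BMP4 arrays ranged from -2.75 to -2.43. The median SD over members was 0.14 in Neurosphere, 0.76 in LIF_NOG and 0.32 in BMP4. Without LIF_NOG 2, 39 of 41 members were lower in LIF_NOG with a median of -1.78, and 29 were lower in BMP4 than in LIF_NOG with a median of -0.90. Rfc1 (adjusted p = 0.0907) and Cdc6 (adjusted p = 0.0604) then lost their call between the treatments, and the difference of Cdc45 (-0.77) shrank by over 1.5 times and still passed. Fen1 and Dut, not called in either case, changed sign to 0.0028 and 0.08.

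Markers of the cell types were read beside these values. All 8 astrocyte markers were measured. Of these, 6 were higher in LIF_NOG and 8 in BMP4, with Gfap higher by 6.11 ± 0.66 and 9.01 ± 0.66. Their summed intensity was 7727 to 8885 on the Neurosphere arrays, 24667 to 44769 on the LIF_NOG arrays and 92872 to 135407 on the BMP4 arrays. LIF_NOG 1 and 4, the arrays lowest in replication genes, had sums of 44517 and 44769, and LIF_NOG 2 and 3 had 27053 and 24667. Of 7 measured neural stem cell markers, 2 were lower in BMP4, with log2 differences of -2.76 for Nes and -2.10 for Egfr, the EGF receptor gene. Their summed intensity was 18037 to 19008 in Neurosphere, 17521 to 28657 in LIF_NOG and 13115 to 19840 in BMP4. Markers of other cell types moved in both directions. Of 6 measured oligodendrocyte lineage markers, Mbp was higher and Olig2 and Cspg4 were lower in LIF_NOG, and Sox10, Pdgfra, Olig2 and Cspg4 were lower in BMP4. Of 8 neuron markers, Dcx and Gad1 were higher in LIF_NOG and 6 did not pass, while in BMP4 Gad1 and Snap25 were higher, Map2 was lower and 5 did not pass. The sums of 8 neuron markers were 646 to 822, 914 to 2030 and 719 to 1266 in the same order of groups. Those of 6 oligodendrocyte lineage markers lay between 25854 and 32235 on the 11 arrays. Most of that sum is the probe of Olig1, whose mean log2 intensity was 14.64 in Neurosphere, 14.76 in LIF_NOG and 14.80 in BMP4, so it says little of the other 5. None of 7 microglial and 5 fibroblast markers had a kept probe. The sum of 5 endothelial and mural markers was 610 on LIF_NOG 2 and 140 to 235 on the other 10 arrays. LIF_NOG 2, the array highest in replication genes, also had the highest neural stem cell marker sum, 28657. The order did not hold further: LIF_NOG 3, second in replication genes, had the lowest LIF_NOG sum, 17521, and LIF_NOG 1 had 23322. That sum is weighted to its brightest probe, Slc1a3, with a mean log2 intensity of 13.93 in LIF_NOG. The part of cell type makeup in the changes of the replication genes was not tested.

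Other genes of the same processes were counted from lists drawn up by function. Of 33 measured replication genes outside the 48, 24 were lower in LIF_NOG, and 26 were lower and 2 higher in BMP4, with medians of -0.74 and -1.24. Dbf4 and Cdc7, which form the kinase that fires origins, fell 14.2-fold and 9.61-fold in BMP4. Ticrr, which helps to recruit Cdc45, fell 12.8-fold, and Dnmt1, the maintenance DNA methyltransferase, 6.59-fold. The histone chaperone gene Asf1a was higher in BMP4 than in Neurosphere by 0.80 ± 0.13 (adjusted p = 0.000204), whereas its relative Asf1b fell by 2.24 ± 0.33 (adjusted p = 0.000103). Orc3 was higher in BMP4 by 0.57 ± 0.16 (adjusted p = 0.00927). Against LIF_NOG, 17 of the 33 were lower in BMP4 and 3 higher, namely Orc3, Asf1a and Pole4. Mcm8 and Mcm9, relatives of the MCM helicase that act in repair, had BMP4 differences of 0.00 and -0.17 and did not pass.

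Of 14 other genes of nucleotide supply, 8 were lower and 1 higher in LIF_NOG, and 13 were lower and 1 higher in BMP4. Shmt1, which feeds one-carbon units to thymidylate synthesis, fell 4.64-fold and 11.1-fold. The gene that rose was Tk2, the mitochondrial thymidine kinase, by 0.50 ± 0.16 in LIF_NOG and 0.57 ± 0.16 in BMP4 (adjusted p = 0.01), opposite in sign to Tk1. Of 15 genes of E2F, RB and S phase entry, 10 were lower and 1 higher in LIF_NOG and 12 were lower and 1 higher in BMP4. Skp2, which targets CDK inhibitors for destruction, fell 4.8-fold and 12.3-fold. E2f2 fell 3.04-fold in LIF_NOG and was undetected on the BMP4 arrays, at least 14.4-fold lower (adjusted p = 3.92e-08). Rb1, the retinoblastoma gene that holds E2F in check, was higher in both, by 0.51 ± 0.16 and 0.66 ± 0.16 (adjusted p = 0.00397).

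Mitosis genes were read as a neighbouring phase of the cycle. Of 24 measured, 20 were lower in LIF_NOG and 23 in BMP4. Their median was -1.55 in LIF_NOG against -1.41 for the replication genes, and -4.45 in BMP4 against -2.56. Between the treatments, 21 of the 24 were lower in BMP4, with a median of -2.90 against -1.22. Cdk1, the kinase of mitotic entry, fell 3.88-fold in LIF_NOG and 35.7-fold in BMP4. Cdca8, of the chromosomal passenger complex, fell 3.04-fold and 50.3-fold. No test of the difference between the lists was made.

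**Figure D5:**
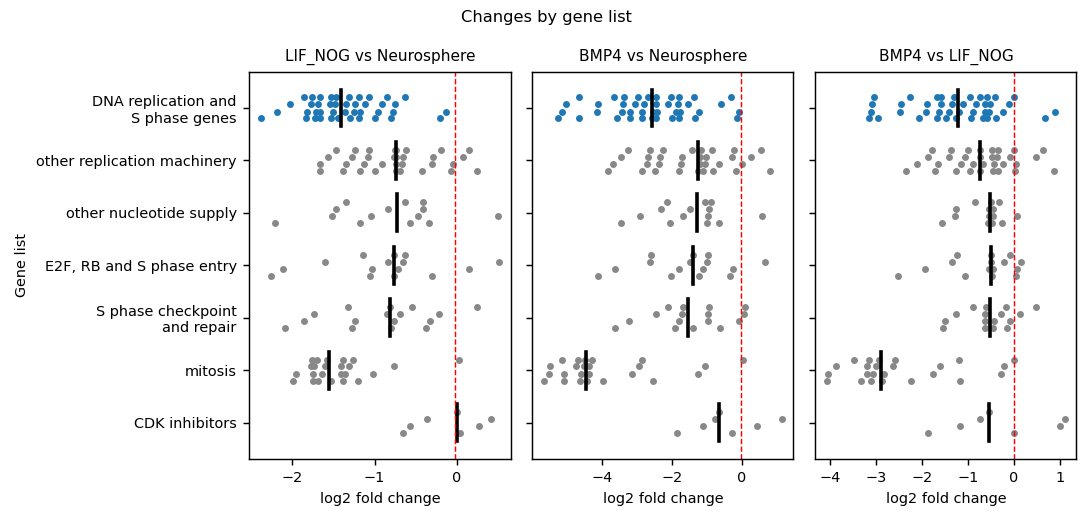
Log2 fold changes of the replication genes (blue) and of genes in 6 other lists (grey) in the 3 comparisons; black bars are list medians and the dashed line is the median of all genes tested. The mitosis list sits at about the level of the replication genes in LIF_NOG and further left in BMP4.

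Set beside the promoters printed above, 11 measured members held an E2F octamer in any of their listed promoters and 25 held none. The median BMP4 difference was -3.42 in the former, over a range of -5.02 to -0.61, and -2.46 in the latter, over a range of -5.25 to -0.09. In LIF_NOG the medians were -1.66 and -1.37. The ranges overlap, and Rrm2 without a match and Gins3 with one lie at opposite ends, so these values are given as a description with no test.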

How the data were processed

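The 12 samples were hybridised to Illumina mouse bead arrays, with groups and replicates from the titles. The deposited raw table holds a non-normalized signal intensity per probe and array and a detection p-value, per the file headers. The authors also deposited a table of processed intensity, quantile normalized on a linear scale by its values. BeadStudio 3 and lumi 2.15.1 are listed, with no role, per the submitters' processing notes. Background correction, normalization and build are otherwise not given in the sources used here. Rows of both tables are not in 1 order, so each of 46630 rows was matched by rank over 5 linking arrays (46623 matched, 7 not) and Neurosphere 1 entered only as an alternative.

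Intensities of 11 arrays were corrected and normalized with neqc (offset 16) of limma 3.58.1 in R 4.3.3. Probes detected on at least 4 arrays (20044, of which 15192 carried 1 symbol of the array annotation) were reduced to the probe of highest mean per gene, giving 10711 genes. Group means were fitted with lmFit and contrasts with eBayes over all groups (8 residual and 4.36 prior degrees of freedom), with two-sided p-values adjusted by Benjamini-Hochberg, and tested on simulated data. The number of arrays limits the precision. Sums, intervals, motif searches and figures used Python 3.11.15, pandas 2.3.3, numpy 2.4.6, scipy 1.17.1 and matplotlib 3.10.9. Alternatives changed normalization, filter, probe choice, arrays, blocks and the threshold. The members, the gene lists and the tests were chosen with earlier results of these data known.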

Additional observations from a re-analysis of the deposited data

Results flagged for a closer look

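Of 84 groups of 4 arrays, 3 held an array far from the other 3, by Dixon's test of the gap, and chance alone gives about 1 in 20. Orc6 read 10.51 on LIF_NOG 2, while the rest of its group lay between 9.37 and 9.52. Prim2 read 6.66 on BMP4 2 against 6.35 to 6.39 on the other BMP4 arrays. Rpa1 read 12.31 on BMP4 4 against 12.71 to 12.75 on the other BMP4 arrays, and its difference from LIF_NOG was called with all 4.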

How the results depend on the processing

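Depth is set by signal over background: 4 members had no detected probe, and Gmnn and Mcm10 have only bounds in BMP4. Of the counts, LIF_NOG members lower ranged from 22 to 40 on leaving out 1 array (lowest without Neurosphere 3) and was 21 with only set A, and BMP4 members lower ranged from 37 to 39. Between treatments, members lower ranged from 27 to 34 and members higher from 1 to 2. They were 16 lower with Neurosphere 1 and the set block and 7 with the set block alone, and 0 higher at 2-fold, 1 with no detection filter and 1 with only the groups compared. All genes called numbered 1692 to 3736, 4675 to 5741 and 3965 to 4900 on leaving out 1 array in the 3 comparisons, 1080, 2745 and 1812 at 2-fold, 2594 and 2524 with the set block in the BMP4 comparisons, and 1675 for LIF_NOG in set A. Without Neurosphere 2 or 3 the LIF_NOG number was 1692 or 1751. Scaling to a common median split the LIF_NOG calls into 751 lower and 1542 higher, against 1395 and 1434, with the median of all genes at 0.08 in place of -0.03 and 35 members lower. With the replicate block, 39, 38 and 32 members were lower. Same-numbered arrays correlated at -0.08 to 0.26 (median 0.15) and others at -0.27 to 0.23 (median -0.04). Not every same-numbered pair exceeded 0.1, and the labels state no shared source, so the numbers were not taken as pairs.

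Sign changes occurred in uncalled values and none passed. On leaving out 1 array, the lowest values were -0.23 for Orc2 (LIF_NOG against Neurosphere), -0.14 for Rpa1 and -0.23 for Orc2 (BMP4 against Neurosphere), and -0.64 for Fen1, -0.067 for Orc2 and -0.48 for Dut between treatments. In LIF_NOG against Neurosphere, Orc2 was 0.057 under median scaling and 0.021 without Neurosphere 4. In BMP4 against Neurosphere, Rpa1 was 0.27 with Neurosphere 1 and the set block, 0.73 with the set block and 0.015 without BMP4 4, and Orc2 was 0.017 without Neurosphere 4. Between treatments the set block gave Fen1 0.34, Rpa2 0.0081, Rfc3 0.082 and Dut 0.16, leaving out LIF_NOG 2 gave Fen1 0.0028 and Dut 0.079, and Orc2 was 0.031 with Neurosphere 1 and the set block, 0.041 and 0.036 without LIF_NOG 3 and 4, and 0.025 and 0.0065 without BMP4 2 and 4. Beyond the fewer arrays or the block itself, the cause was not tested.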

Other observations

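Of 16 checkpoint and repair genes, 12 were lower in LIF_NOG and 13 in BMP4 (limma). The helicase gene Blm fell 3.34-fold in LIF_NOG and 9.41-fold in BMP4. Hus1, of the checkpoint clamp, was higher in BMP4 than in LIF_NOG by 0.48 ± 0.13 (adjusted p = 0.0113), and its difference from Neurosphere was 0.11 (adjusted p = 0.597).

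The CDK inhibitors brake entry into S phase. Those called were lower against Neurosphere and went both ways between the treatments. Of 7 measured, 1 was lower in LIF_NOG and 4 in BMP4 than in Neurosphere, and 0 were higher in either. Over all 10711 genes, 1395 were lower in LIF_NOG and 2730 in BMP4. Cdkn1a was higher in BMP4 than in LIF_NOG by 1.00 ± 0.27 (adjusted p = 0.009). Cdkn1c, Cdkn2a and Cdkn2c were lower, with log2 differences of -1.86 (adjusted p = 0.0122), -1.18 (adjusted p = 0.00201) and -0.73 (adjusted p = 0.00289). Cdkn2b had differences of 1.14 from Neurosphere (adjusted p = 0.0528) and 1.10 from LIF_NOG (adjusted p = 0.0509) and did not pass. Without LIF_NOG 2, 1 of the 7 was higher in BMP4 than in Neurosphere.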
